A study of Arabidopsis thaliana with 6 samples.

Results

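A single spray of inducer was compared with the same spray on empty-vector plants, 24 h after treatment, in whole Arabidopsis thaliana seedlings. The comparison used 4 of the 6 arrays of the series, the 2 titled Temporal-induction and the 2 titled Control, and covered 22746 of the 22810 probe sets on the array, leaving out the 64 Affymetrix controls. Of these, 15922 passed a filter on low signal and were tested, and 6298 of the tested probe sets had a mean signal of 100 or more in both groups and carry most of the account below. Control seedlings carried the vector PER-10 alone in a Ler-0 background, grew on lehle plates and received 2 µM 17-B-estradiol once at day 13. Temporal seedlings, of background Ler-1, received the same spray once at day 13, written in their labels as 7-B-estradiol. Another group, prolonged induction, also Ler-1, was sown on 2 µM inducer and sprayed every 24 h. It is used to show where the single spray differs. Its arrays also entered the low filter and the pooled spread of the fit, and so bear on every adjusted p against control. All plants carried a T-DNA, grew in constant light and were harvested at 14 days with 4 rosette leaves. The series concerns nuclear gene expression when chloroplast division is inhibited. No label names the transgene, and no group of the induced line was left without inducer, so the line, its background and the induction cannot be told apart.

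Chloroplasts divide at the middle of the organelle, where rings of the tubulin-like FtsZ proteins inside and dynamin-related proteins outside constrict the envelope. Most chloroplast proteins are encoded in the nucleus, and the nucleus and plastid exchange signals on plastid state, protein import and photosynthetic output. Plants short of sugar or kept in the dark raise a known set of starvation genes, turn over protein in the vacuole and lower the genes for making ribosomes and the photosynthetic apparatus.

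Expression was read as MAS5 signal, a linear intensity per probe set. Median signal was 53.0 to 58.7 on the 6 arrays. The 3' to 5' signal ratio of control transcripts, a sign of RNA integrity, was 4.19 and 4.19 for actin in control and 3.19 and 5.22 in temporal arrays, which overlap. For GAPDH it was 1.82 and 2.38 in control and 2.43 and 2.48 in temporal arrays, both temporal arrays above both control arrays, and its part in the results was not tested. Log2 signals correlated across probe sets at r = 0.881 within the control pair, 0.914 within the temporal pair and 0.863 to 0.867 between them. Whether replicates are separate cultures is not stated in the labels, and the p-values therefore cover only the spread seen between these arrays, technical or not.

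After 1 spray, 386 of 15922 probe sets (2.42%) differed from control at an adjusted p under 0.05, by limma with Benjamini-Hochberg adjustment over all tested probe sets. Of these, 270 were higher (1.70%) and 116 lower (0.729%). Of the 386, 167 carried 1 gene symbol, 114 of them higher and 53 lower. By more than 2-fold, 172 probe sets rose and 24 fell. At a signal of 100 or more in both groups, 274 of 6298 probe sets were called (4.35%), 167 higher (2.65%) and 107 lower (1.70%). There the probe sets that rose had a median control signal of 241 and a median log2 fold change of 0.96, and those that fell a median control signal of 1273 and a median of −0.81. Among the 456 probe sets with a mean signal of 1000 or more, 28 rose (6.14%) and 56 fell (12.3%), against 51 and 3 of the 8804 under 100. At 300 to under 1000, 80 of 1408 rose (5.68%) and 39 fell (2.77%). The median log2 fold change of all tested probe sets was −0.17 at 1000 or more and −0.031 at 300 to under 1000. In all 386 the 2 arrays of each group did not overlap, as was so for 46.3% of all tested probe sets (22.7% higher, and 52.1% in either direction at a signal of 100 or more in both groups). The calls rested most on both temporal arrays and, to a lesser degree, on both control arrays. With any 1 of these 4 arrays left out, many of the 386 probe sets were not called. Without a control array the loss was among the falls above all, and some probe sets outside the 386 were called. With only the control and temporal arrays fitted, limma called 363 probe sets, and 311 of these were among the 386. With a variance prior that ignored signal level it made no call. There 1874 probe sets had an unadjusted p under 0.05, against 2347 in the reported fit.

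**Figure D1:**
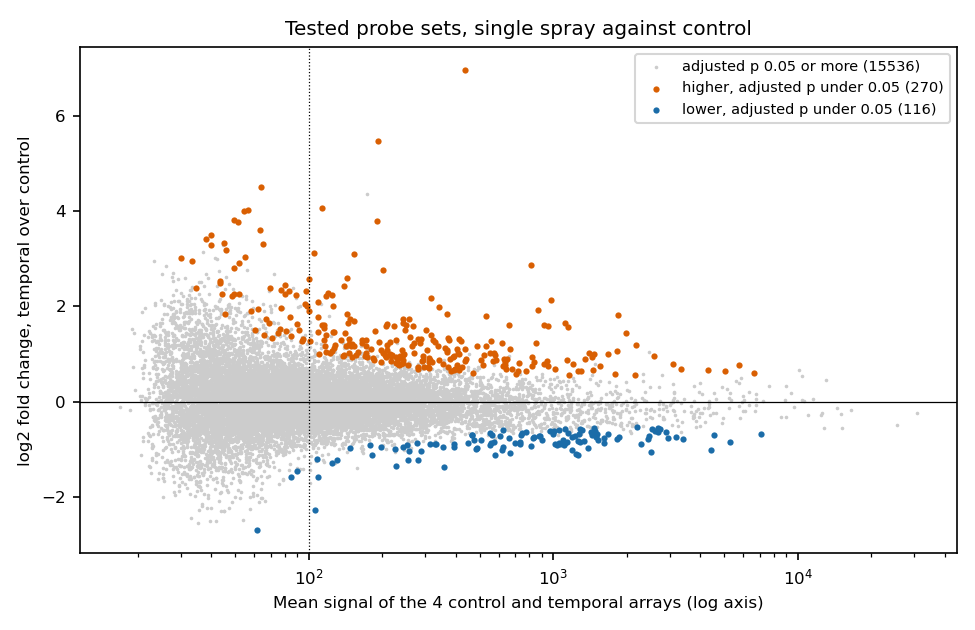
Log2 fold change of temporal over control (vertical axis) against the mean signal of the 4 arrays (horizontal log axis) for the 15922 tested probe sets. Orange points are the 270 higher and blue points the 116 lower at an adjusted p under 0.05, and the dotted line marks a signal of 100: most falls lie to its right, while rises lie on both sides.

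At a signal of 100 or more the 2 largest rises were in probe sets with no symbol, described last, and AT2G20870 led the genes with 1. AT2G20870, which encodes a cell wall protein precursor, read 148 and 174 in the control arrays and 574 and 578 in the temporal arrays. Its log2 fold change was 1.84 ± 0.15 (SE; adjusted p = 0.000151), a 3.59-fold rise, and the temporal arrays were nearly equal. CCL, a clock-regulated gene whose transcript is short-lived, read 555 and 608 in control and 1577 and 1856 in temporal arrays (log2 fold change 1.56 ± 0.13, adjusted p = 0.000231). SWEET10, a sugar transporter of the plasma membrane, read 85.1 and 143 in control and 318 and 350.0 in temporal arrays (log2 fold change 1.59 ± 0.23). Its control arrays differed by more than its temporal arrays, and the groups stayed apart. AT3G18250 rose from 114 and 109 to 349 and 399 (log2 fold change 1.74 ± 0.18, adjusted p = 0.000667). AT2G37750 rose from 126 and 82.8 to 289.8 and 331 (log2 fold change 1.60 ± 0.30, adjusted p = 0.0203).

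ALN, BRH1 and AT3G05220 were also among the 15 leading rises. ALN encodes allantoinase, which frees nitrogen from purines, and read 111 and 143 in control and 282 and 297 in temporal arrays (a 2.29-fold rise, adjusted p = 0.00884). BRH1, a RING-H2 gene known to respond to brassinosteroid, rose from 195 and 258 to 447 and 538 (log2 fold change 1.13 ± 0.18). AT3G05220, of the heavy-metal-associated domain family, rose from 174 and 148 to 425 and 311 (log2 fold change 1.18 ± 0.20). AT3G15630, AT2G15960, AT1G21920 and AT2G17710 completed the leading rises, with log2 fold changes of 1.33, 1.28, 1.26 and 1.22. EIN3, the transcription factor at the end of the ethylene pathway and the only measured gene of the ethylene list, read 149.7 and 133 in control and 243 and 262 in temporal arrays (log2 fold change 0.84 ± 0.19, adjusted p = 0.0477). That call was lost without each control array (adjusted p = 0.0810 and 0.149), without each temporal array (0.221 and 0.298) and without prolonged replicate 1 (0.0503). It was also lost with only control and temporal arrays fitted, with median centring, the replicate block or no low filter, and without the trend (adjusted p = 0.0511 to 0.314). Of the 15 leading rises, 9 were called without temporal replicate 1, 8 without temporal replicate 2 and 14 without control replicate 2, where AT2G37750 had an adjusted p of 0.0677. AT2G37750, SWEET10, AT4G27450, ALN and BRH1 were lost without either temporal array, AT3G05220 without the first, and AT1G21920 and AT2G17710 without the second.

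**Figure D2:**
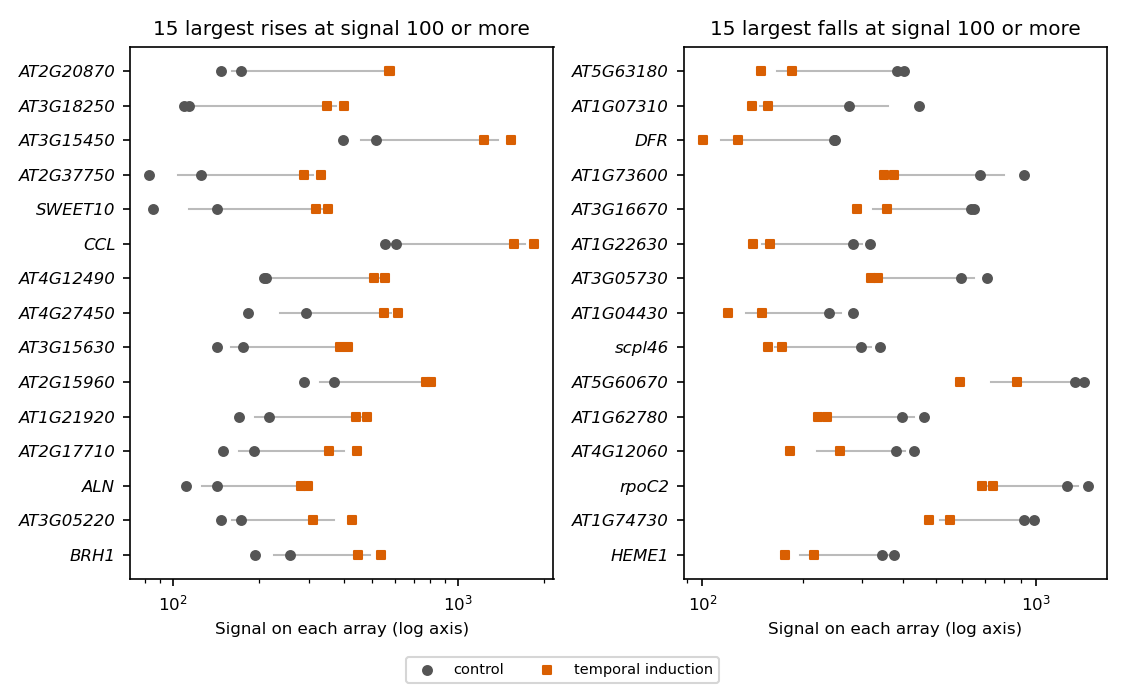
Signal on each of the 2 control arrays (grey circles) and 2 temporal arrays (orange squares), on a log axis, for the 15 genes with the largest rises (left) and the 15 with the largest falls (right) at a signal of 100 or more in both groups. Grey lines join the group means, and in every gene shown the groups do not overlap: AT2G20870 moves from 148 and 174 to 574 and 578, and AT5G63180 from 382 and 401 to 150 and 185.

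Genes known to rise in darkness and sugar starvation were among the strongest rises. AT3G15450, AT4G27450 and AILP1 encode related proteins with the YGL and LRDR motifs, named for their induction by aluminium. AT3G15450 read 397 and 517 in control and 1539 and 1234 in temporal arrays (log2 fold change 1.61 ± 0.17, adjusted p = 0.000900). AILP1 read 1234 and 1119 and 2516 and 2414 (log2 fold change 1.07 ± 0.12, adjusted p = 0.00169), and AT4G27450 read 184 and 294 and 615 and 551 (log2 fold change 1.33 ± 0.21). Both temporal arrays lay above both control arrays in all 3 genes. A list of 25 sugar starvation and dark genes, written after these values were seen, had 7 measured members. These 3 genes were higher and none was lower. Because the list was written with these values known, its median log2 fold change of 1.07, the value of AILP1, is no evidence of a shared response. The same holds for the 4 members not called, whose median was 0.38, against −0.0017 over all tested probe sets. Those 4 ran from 0.02 for PPDK, the pyruvate orthophosphate dikinase, to 1.92 for MCCA, a subunit of leucine breakdown. MCCA read 6.40 and 36.8 in control and 46.3 and 72.5 in temporal arrays. AT3G15450 and AILP1 were called without any 1 array, AT4G27450 not without temporal replicate 1 or 2 (adjusted p = 0.104 and 0.0700).

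Among genes of vacuolar proteolysis and autophagy, GAMMA-VPE, AT4G16190 and ATG8E rose. GAMMA-VPE, the vacuolar processing enzyme of vegetative tissue, read 888 and 959 in control and 1975 and 1792 in temporal arrays (log2 fold change 1.03 ± 0.13, adjusted p = 0.00282). AT4G16190, a papain-type cysteine protease gene, read 2577 and 2526 and 3992 and 4269.5 (log2 fold change 0.69 ± 0.12, adjusted p = 0.0148). These were the 2 called of 7 measured vacuolar proteases, a list also written after values were seen, and all 7 had a log2 fold change above 0 (median 0.53). Over all tested probe sets 1.70% rose and 49.8% were above 0, and at a mean signal of 1000 or more 6.14% rose. The cathepsin B genes AT1G02300 and AT1G02305, neighbours whose probes may share transcripts, had log2 fold changes of 0.78 ± 0.18 and 0.53 ± 0.16 and adjusted p of 0.0531 and 0.136. ATG8E, whose protein coats autophagosomes, read 117 and 92.3 in control and 207 and 218 in temporal arrays (log2 fold change 1.03 ± 0.23, adjusted p = 0.0397). It was the 1 call among 12 measured autophagy and senescence genes, 10 of which were above 0 (median 0.43). APG8H and ATG8F, of the same family, had log2 fold changes of 0.65 ± 0.15 and 0.45 ± 0.14 without passing (adjusted p = 0.0517 and 0.156). UBC28, a ubiquitin-conjugating enzyme, read 632 and 711 and 1241 and 1195 (log2 fold change 0.86 ± 0.13, adjusted p = 0.00566). It was the 1 call among 24 measured ubiquitin and F-box genes. A single call in a list of 12 or 24 genes is too few to set apart from the shares over all probe sets. GAMMA-VPE was called without each array but temporal replicate 1 (adjusted p = 0.0610), while AT4G16190, ATG8E and UBC28 were lost without either temporal array, ATG8E also without control replicate 2 (adjusted p = 0.135), and AT4G16190 and ATG8E also with median centring.

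At a signal of 100 or more the 2 largest falls were again in probe sets with no symbol, and AT5G63180 led the genes with 1. AT5G63180, which encodes a pectate lyase, read 382 and 401 in control and 149.8 and 185 in temporal arrays (log2 fold change −1.23 ± 0.18, adjusted p = 0.00573). AT1G73600, of the phosphoethanolamine methyltransferase family that makes phosphocholine, read 917 and 679 and 375 and 351 (log2 fold change −1.12 ± 0.21). The temporal arrays were close to each other while the control arrays were apart, and no value overlapped. DFR, the dihydroflavonol reductase of anthocyanin synthesis, read 249 and 247 and 100.3 and 128 (log2 fold change −1.13 ± 0.26, adjusted p = 0.0489). The call of DFR was lost with no low filter. It was the 1 call of 4 measured flavonoid genes. Of all tested probe sets at a signal of 100 or more in both groups, 1.70% fell. A single call among 4 genes is too few to set apart from that share. The other 3 flavonoid genes are glycosyltransferases: UF3GT had a log2 fold change of −0.91 ± 0.28 (adjusted p = 0.145), and UGT78D1 and UGT78D2 overlapped between the groups. AT3G05730, a defensin-like gene, fell from 711 and 593 to 336 and 321 (log2 fold change −0.98 ± 0.16, adjusted p = 0.00938). AT3G16670, of the pollen Ole e 1 family, fell from 651 and 638 to 291 and 357 (adjusted p = 0.0243). AT1G07310, a C2 domain gene, fell by 1.23 on the log2 scale, and AT1G22630, AT1G04430, scpl46 (a serine carboxypeptidase-like gene) and AT1G62780 by 0.99, 0.95, 0.95 and 0.90.

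Fewer of the leading falls than of the leading rises were called with 1 array left out. Of the 15 leading falls, 1 was called without temporal replicate 1 (AT5G60670) and 1 without temporal replicate 2 (AT5G63180), and 6 and 5 without control replicate 1 or 2, with adjusted p up to 0.309, 0.356, 0.152 and 0.166. All 15 kept their direction, and log2 fold changes without a temporal array ran from −1.39 to −0.63.

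HEME1, AT1G74730 and AT4G12060, which encode plastid proteins, were among the 15 leading falls. HEME1, the uroporphyrinogen decarboxylase of chlorophyll and haem synthesis, read 345 and 374 in control and 176 and 215 in temporal arrays (log2 fold change −0.88 ± 0.19, adjusted p = 0.0352). Its call was lost with median centring, with no low filter and when any 1 control or temporal array was left out. HEME1 was the 1 call among 10 measured tetrapyrrole genes, too few to read as a result about them. All 10 had a log2 fold change below 0. Their median was −0.28, and the others ran from −0.71 for HEMA2 to −0.02 for CHLM. Over all tested probe sets at a signal of 100 or more in both groups, 1.70% fell, 47.9% were above 0 and the median was −0.015. AT1G74730, also called RIQ2, a thylakoid protein that affects grana stacking, read 920.4 and 984 and 477 and 553 (log2 fold change −0.89 ± 0.16, adjusted p = 0.0180). AT4G12060, a ClpT subunit of the stromal Clp protease, read 380.1 and 431 and 259 and 182 (log2 fold change −0.90 ± 0.21, adjusted p = 0.0496), a call lost in most of the other fits.

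In photorespiration 3 of 6 measured genes fell, and in the Calvin cycle 3 of 4, against 0.729% of all tested probe sets and 12.3% of those with a mean signal of 1000 or more. Photorespiration salvages the glycolate made when Rubisco reacts with oxygen. AT1G11860 and AT1G32470 encode the T and H proteins of mitochondrial glycine cleavage, and LrgB the plastid carrier of glycolate and glycerate. AT1G11860 read 1386 and 1613 in control and 874 and 905 in temporal arrays (log2 fold change −0.75 ± 0.16), AT1G32470 1729 and 2001 and 1082 and 1246 (−0.68 ± 0.13). LrgB read 1114 and 1078 and 608 and 724 (log2 fold change −0.72 ± 0.14, adjusted p = 0.0260). All 6 measured members were below 0 (median −0.53, against −0.17 over all tested probe sets with a mean signal of 1000 or more). The Calvin cycle genes that fell were SBPASE, the sedoheptulose bisphosphatase, from 2337 and 1750.2 to 1216 and 1174 (log2 fold change −0.76 ± 0.17), PRK, the phosphoribulokinase, from 3332 and 2989 to 2074 and 2023 (−0.62 ± 0.13), and AT1G56190, a plastid phosphoglycerate kinase, from 651 and 699 to 430.0 and 419 (−0.67 ± 0.14). RCA, the activase of Rubisco, read 14256 and 13024 and 11299 and 11179 and did not pass (log2 fold change −0.28 ± 0.14, adjusted p = 0.391). With median centring none of the 6 calls in these lists was made. Quantile normalization kept all 3 in photorespiration and only AT1G56190 in the Calvin cycle. Both lists were written after values were seen. The Calvin cycle list written at the start had 2 of 4 measured members lower, SBPASE and PRK, and 1 above 0, TPI, a triose phosphate isomerase gene. None of these 6 calls was made without temporal replicate 1 or 2 (adjusted p = 0.101 to 0.263).

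PRK and RCA were also the 2 measured of 12 genes fixed as leaf markers. Their summed signal was 17589 and 16014 in control arrays and 13373 and 13202 in temporal arrays, without overlap. Most of this sum is RCA, which was not called. Groups did not overlap in 52.1% of all tested probe sets at a signal of 100 or more in both, so the sum is not read as a change in leaf share. The 3 measured root markers, EXPA7, PYK10 and EXPA18, summed to 4172 and 4813 in control and 3784 and 3698 in temporal arrays, and none was called. In RNA of whole plants, fewer cells of a type and less RNA per cell cannot be told apart, and the part of leaf and root share in these results was not tested.

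Of 8 measured photosystem, antenna and ATP synthase genes, a list written after values were seen, 2 fell. At a mean signal of 1000 or more 1 of 6 members fell, beside 12.3% of all tested probe sets. At 300 to under 1000 it was 1 of 2, beside 2.77%. LHCB4.3, a minor light-harvesting protein, read 614 and 552 in control and 312 and 323 in temporal arrays (log2 fold change −0.87 ± 0.15, adjusted p = 0.0131), whereas LHCB4.2 read 695 and 675 and 843 and 965 (log2 fold change 0.40 ± 0.15, adjusted p = 0.220). ATPC1, the gamma subunit of plastid ATP synthase, fell from 3263 and 3269 to 1877 and 2371 (log2 fold change −0.63 ± 0.14). The other 6 ran from −0.28 to 0.40 without a call. The lists written at the start had 1 of 3 light-harvesting genes lower (LHCB4.3) and 1 of 6 photosystem and electron carrier genes (ATPC1). Of plastid thiol redox genes, another list written after values were seen, 2 of 8 fell, AT3G11630, a 2-Cys peroxiredoxin, from 3234 and 3185 to 2117 and 2255 (log2 fold change −0.55 ± 0.12), and ty2, thioredoxin y2, from 669 and 619 to 323 and 418 (−0.81 ± 0.18). The median of the 8 was −0.52. At those 2 signal levels, 1 of 2 and 1 of 3 thiol redox members fell, beside the same shares. With median centring only LHCB4.3 was still called among the photosystem and thiol redox falls. All 4 calls were lost without either temporal array and without control replicate 1 (adjusted p = 0.073 to 0.364).

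Of 69 measured plastid-encoded genes, 4 fell and none rose: rpoC2 and rpoA, subunits of the plastid RNA polymerase, and rps2 and rps15, proteins of the small plastid ribosomal subunit. rpoC2 read 1426 and 1237 in control and 685 and 741 in temporal arrays (log2 fold change −0.90 ± 0.14, adjusted p = 0.00937). rps15 read 1439 and 1509.5 and 778 and 854 (−0.85 ± 0.13), rps2 2575 and 2080.3 and 1367 and 1408 (−0.74 ± 0.14), and rpoA 1163 and 1308 and 772 and 758 (−0.69 ± 0.13). All 4 had a mean signal of 1000 or more, as did 51 of the 69, and 12.3% of all tested probe sets at that level fell, so the count is not above that share. The 69 genes as a whole had a median of −0.08 and ran from −0.91 to 1.05. One-cycle labelling starts from poly(A) tails, which few plastid transcripts carry. Of 9 measured nuclear genes for plastid ribosomal proteins, a list written after values were seen, AT4G01310, protein L5, fell from 1185 and 1252 to 772 and 813 (log2 fold change −0.62 ± 0.13, adjusted p = 0.0283). All 9 were below 0, with a median of −0.48 and a range of −0.62 to −0.14. Over all tested probe sets with a mean signal of 1000 or more the median was −0.17. Median centring lost the calls of rps2, rpoA and AT4G01310. The 8 measured mitochondrial genes were all above 0 (median 0.35, 0.27 to 0.82) and none passed. Only 3 of the 8 had a signal of 100 or more in both groups. Over all tested probe sets 49.8% were above 0. All 5 plastid calls were lost without temporal replicate 1 or 2 (adjusted p = 0.070 to 0.241).

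**Figure D3:**
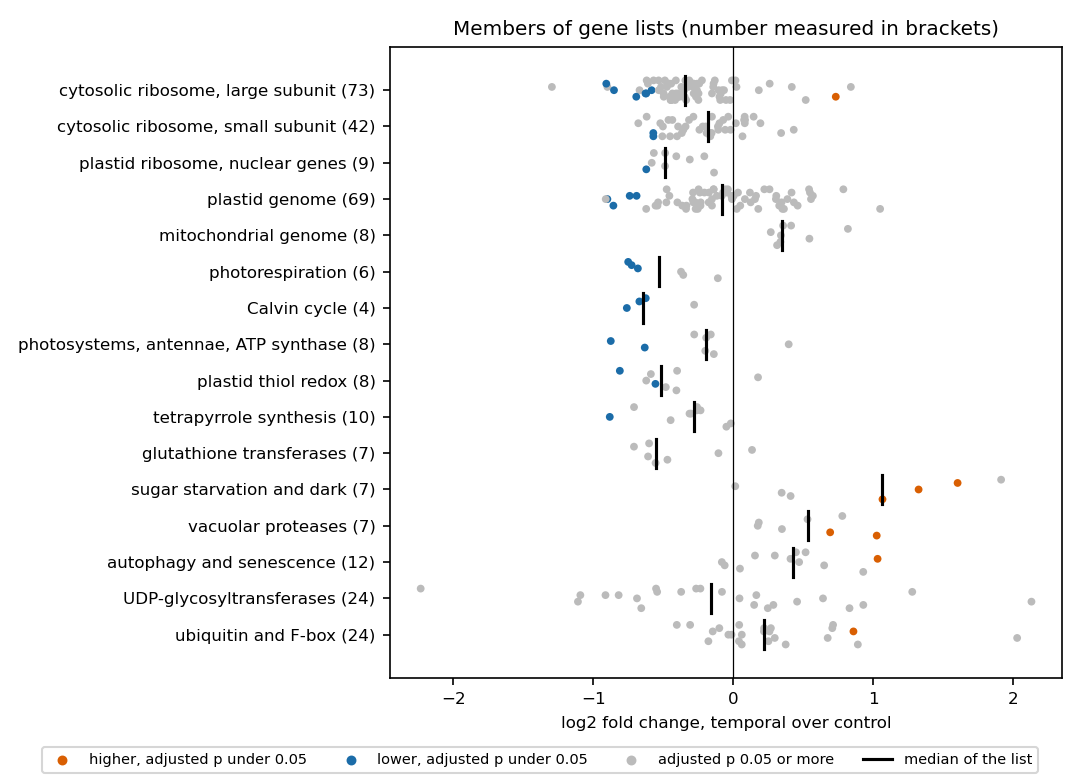
Log2 fold change of temporal over control (horizontal axis) for each measured member of 16 gene lists, with the number measured in brackets. Orange points rose and blue points fell at an adjusted p under 0.05, and grey points did not pass. Black bars are list medians: −0.35 for the 73 proteins of the large cytosolic ribosomal subunit and −0.53 for photorespiration. They are 0.53 for vacuolar proteases and 1.07, the value of AILP1, for sugar starvation genes. These 4 lists were written after values were seen.

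Of 73 measured genes for proteins of the large ribosomal subunit, 6 fell and 1 rose, and 65 were below 0 (median −0.35). Of 42 for the small subunit, 2 fell and 32 were below 0 (median −0.18). Both lists were written after values were seen. Of the 26 and 16 members with a mean signal of 1000 or more, 4 and 2 fell, which is near the 12.3% of all tested probe sets at that level. The median of all tested probe sets was −0.17 at that level and −0.031 at 300 to under 1000. The small-subunit median of −0.18 is near the first of these and is not read as a ribosomal change. The large-subunit median of −0.35 is below both. AT5G60670, protein L12, read 1305 and 1392 in control and 874 and 592 in temporal arrays (log2 fold change −0.91 ± 0.17, adjusted p = 0.0203). AT4G13170, L13a, read 789 and 687 and 359.7 and 463 (−0.85 ± 0.17), and AT5G47700, the acidic protein P1, 1695 and 1917 and 1115 and 1224 (−0.63 ± 0.13). AT4G15000, L27, fell by 0.62 on the log2 scale, and AT3G04840 (S3a) and AT5G61170 (S19) of the small subunit by 0.57 each. The gene that rose was AT3G28500, an acidic protein P2, from 198 and 224 to 352 and 349 (log2 fold change 0.73, adjusted p = 0.0356), a call lost when any 1 control or temporal array was left out and with median centring. Ribosomal proteins are encoded by families of near-identical genes, and probe sets can read more than 1 copy.

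AT4G10480, the alpha subunit of the nascent polypeptide-associated complex that meets new chains at the ribosome, read 932 and 876 in control and 493 and 492 in temporal arrays (log2 fold change −0.88 ± 0.15, adjusted p = 0.0123). AT5G12110, for elongation factor 1B alpha, went the other way, from 47.3 and 92.8 to 161 and 205 (log2 fold change 1.45 ± 0.31, adjusted p = 0.0370). Its control arrays were far apart, and the log2 fold change was 0.97 without control replicate 1. The call of AT5G12110 was lost there. It was also lost by limma with only control and temporal arrays fitted (adjusted p = 0.0685) and with no low filter (adjusted p = 0.0626). Of the 8 ribosomal falls, 1 was called without temporal replicate 1 and none without temporal replicate 2 (adjusted p up to 0.328 and 0.248), 2 and 1 without control replicate 1 or 2, and 2 with quantile normalization or median centring. AT4G10480 was lost without either temporal array (adjusted p = 0.117 and 0.113) and, narrowly, without control replicate 1 (adjusted p = 0.0526).

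Among genes under a signal of 100 in either group, 103 probe sets rose and 9 fell. The low filter used the mean of all 6 arrays, 4 of them induced, so a probe set low in control could pass through its induced values. Of the 103, 30 had a control mean under 23.5, the level that 30% of probe sets did not reach, and 1 of the 9 a temporal mean under it. The split of rises and falls is therefore not read as a result. Without the low filter 66 rose and 6 fell. The largest rises started from control signals near or below 23.5, so their size is not exact. AT5G22430, of the pollen Ole e 1 family, read 19.3 and 7.40 in control and 141 and 284 in temporal arrays (log2 fold change 4.07 ± 0.46, adjusted p = 0.00135). AT5G62080, of the lipid transfer protein family, read 11.2 and 12.6 and 125 and 111 (log2 fold change 3.31 ± 0.41), and AT2G42990, a GDSL lipase gene, 18.6 and 4.22 and 76.1 and 84.4 (3.18 ± 0.68). AT1G68875 and AT5G64180 had log2 fold changes of 4.00 ± 0.67 and 3.29 ± 0.67. AT5G22430 was called without any 1 array, and the other 4 were lost without either temporal array, while 3 of the 5 were lost with only control and temporal arrays fitted. AT5G33370, a GDSL gene of the cutin synthase type, was better measured, with 61.8 and 42.5 in control and 373 and 328 in temporal arrays (log2 fold change 2.77 ± 0.22, adjusted p = 0.000151), and was called without any 1 array. WSD1, a wax ester synthase and the other measured gene of a wax and cutin list written after values were seen, read 23.6 and 3.11 and 70.3 and 68.1 and did not pass (adjusted p = 0.0873).

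Of the low-signal falls, AT3G28550, a proline-rich extensin-like gene, read 219 and 129 in control and 22.3 and 52.9 in temporal arrays (log2 fold change −2.29 ± 0.53, adjusted p = 0.0492). AT3G24250, a glycine-rich protein gene, read 164 and 163 and 52.0 and 56.9 (log2 fold change −1.59 ± 0.30). AT2G10930 and AT4G29560 fell by 1.58 and 1.46 on the log2 scale, and these 4 were lost without either temporal array and without control replicate 1 (adjusted p = 0.064 to 0.295). Markers of flowers and anthers were near the floor in control arrays. ATA27, an anther gene and the only measured one of 22, read 3.98 and 20.5 and 75.0 and 69.7 (log2 fold change 3.00 ± 0.70, adjusted p = 0.0504), and AGL24, a flowering-time MADS-box gene and the only measured one of 17, 21.3 and 21.0 and 79.9 and 81.4 (1.93 ± 0.45, adjusted p = 0.0516). Neither passed, and their part in the low-signal rises was not tested.

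Genes of chloroplast division did not pass. Of the 3 measured, FTSZ2-2, an FtsZ ring protein, read 173 and 119 in control and 21.0 and 91.8 in temporal arrays (log2 fold change −1.71 ± 0.58, adjusted p = 0.182). The temporal arrays were both below the control arrays but far apart. FZL, a dynamin-like protein of thylakoid and envelope membranes, read 110.3 and 153 and 93.9 and 108 (−0.36 ± 0.26, adjusted p = 0.575), and FTSZ2-1 read 231 and 183 and 187 and 209, overlapping between the groups (−0.06 ± 0.20).

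Regulator and detoxification families had no calls at this number of arrays. None of 13 measured bZIP genes, 6 WRKY genes, 12 cytochrome P450 genes, 24 UDP-glycosyltransferases, 20 expansins and xyloglucan hydrolases or 7 glutathione transferases passed. Only 2.42% of all tested probe sets were called, and under a mean signal of 100 only 0.579% rose and 0.0341% fell. The measured WRKY and cytochrome P450 genes were 6 of 72 and 12 of 232 listed, with 0 and 3 at a signal of 100 or more in both groups. The lack of calls is therefore not read as a result about these families. bZIP44, of the sucrose-responsive bZIP group, came closest among the factors, with 113 and 101 in control and 161 and 245 in temporal arrays (log2 fold change 0.89 ± 0.23, adjusted p = 0.0827). The 7 glutathione transferases had a median of −0.55, with GSTU27 at 433 and 506 and 328 and 310.1 (log2 fold change −0.55 ± 0.15, adjusted p = 0.0989). The measured genes of abscisic acid and osmotic stress (3), jasmonate (2), the cell cycle and histones (5), starch and sugar metabolism (7) and the bHLH family (5) also had no call.

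The single spray was then set against prolonged induction directly. Of 15922 probe sets, 14 differed at an adjusted p under 0.05 (0.0879%), 8 of them higher after the single spray (0.0502%), with 940 at an unadjusted p under 0.05. Without temporal replicate 1 or 2 this count was 1, and without prolonged replicate 2 it was 6. Of the 386 probe sets called against control, 7 differed between the inductions, and 4 of these carried 1 symbol. Both inductions were set against the same control arrays, so their values against control are not independent. In its own comparison with control, prolonged induction had 6.95% of probe sets called.

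AT4G12490 and AT4G12500, neighbouring genes for hybrid proline-rich proteins of the lipid transfer type, rose less than after prolonged induction. AT4G12490 read 208 and 212 in control, 554 and 507 in temporal and 1939 and 2028 in prolonged arrays (temporal minus prolonged −1.90 ± 0.13 on the log2 scale, adjusted p = 0.000284). AT4G12500 read 25.1 and 19.6, 119 and 116 and 398 and 597 (temporal minus prolonged −2.06 ± 0.28, adjusted p = 0.0180). The 3 groups did not overlap in either gene, whose sequences are alike, so a probe set may read both. AT2G43620, a chitinase family gene, read 51.4 and 93.1, 205 and 230.0 and 945 and 996 (temporal minus prolonged −2.16 ± 0.25, adjusted p = 0.00942). AT1G35280 went the other way: it read 101 and 113 in control and 124 and 119.9 in prolonged arrays and 14.7 and 18.1 in temporal arrays (temporal minus control −2.71 ± 0.35, temporal minus prolonged −2.90 ± 0.35, adjusted p = 0.0116). Its low temporal values lie below the level that 30% of probe sets did not reach. GSTU25, a glutathione transferase gene that did not pass against control (adjusted p = 0.347), read 379.9 and 260.2 in control and 203 and 182 in temporal arrays. Its mean in prolonged arrays was 19.4 ± 7.87 (SD, n = 2), below the level that 30% of probe sets did not reach. The size of its difference from prolonged arrays is therefore not exact. Its temporal minus prolonged difference was 3.37 ± 0.33 (adjusted p = 0.00368), larger than in those 4 genes and in the opposite direction, and was not called without either temporal array.

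**Figure D4:**
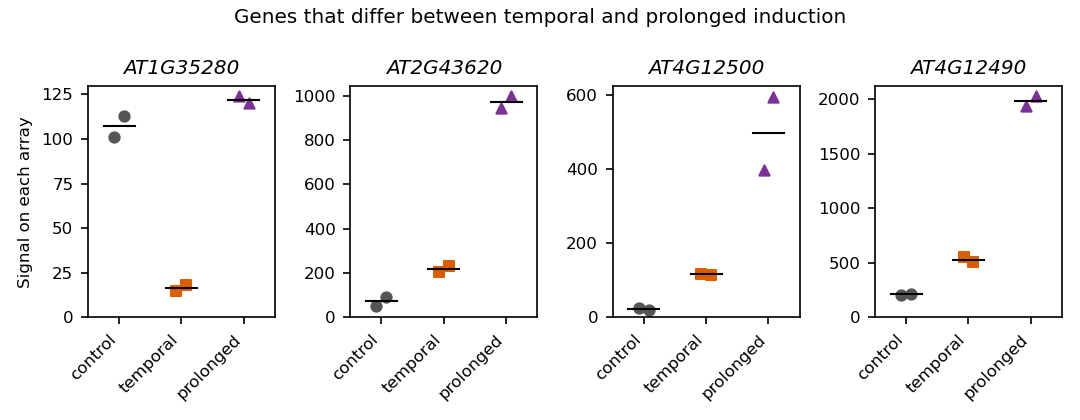
Signal on each array (vertical axis, from 0) of the 4 named genes that were called against control and also differed between the inductions. Points are the 2 control, temporal and prolonged arrays and black bars the group means: AT4G12490, AT4G12500 and AT2G43620 stand highest in prolonged arrays, while AT1G35280 is low in temporal arrays only.

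Of the 386 called probe sets, 211 carried no symbol in the names used here, and 8 carried several. Among those at a signal of 100 or more in both groups, 249764_at showed the largest rise, from 191 and 195 in control to 1372 and 1478 in temporal arrays (log2 fold change 2.88 ± 0.18, adjusted p = 2.54e-05). 245928_s_at, whose suffix marks probes shared by several transcripts, rose from 115 and 114 to 513 and 525 (2.18 ± 0.17), and both rises were called without any 1 array. 251155_at and 251667_at fell by 1.37 and 1.35 on the log2 scale. The largest change of all tested probe sets, singled out after its values were seen, was the unnamed 247718_at, from 4.40 and 10.8 in control to 865 and 867 in temporal arrays (log2 fold change 6.98, adjusted p = 4.17e-06). Its prolonged arrays read 1954 and 1795, and its control arrays lay below the level that 30% of probe sets did not reach, so the fold is not exact.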

How the data were processed

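Whole seedlings were measured on 6 ATH1 arrays, Affymetrix arrays of oligonucleotide probes, 2 per group, grouped by the sample titles. The authors deposited 1 linear intensity per probe set and array. The submitters' processing notes name MAS5 and GCOS, without versions. The mean after trimming 2% at each end was 100.01 on every array. The number of arrays limits the precision: the median standard error was 0.32 on the log2 scale. Probe sets were named from GEO's platform annotation (13513 with 1 symbol, 503 with several, 8730 with none), and 13508 matched the TAIR10.1 gene table, used for names only. A gene with several probe sets was represented by its brightest.

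After log2 transformation, probe sets in the lowest 30% by mean log2 signal, under a signal of 23.5, were dropped. All 6 arrays entered a limma fit of group means (limma 3.58.1, R 4.3.3; 3 residual and 7.96 prior degrees of freedom), its variance prior following signal level. An adjusted p is Benjamini-Hochberg over all tested probe sets, called under 0.05. An exact two-sided test of 2 arrays against 2 cannot go below 0.333, so the calls rest on the pooled spread. The script was tested on simulated data.

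Genes named were, among called probe sets with 1 symbol and no overlap between groups, the 15 largest rises and 15 largest falls at a signal of 100 or more, the 5 largest of each among the rest, up to 4 members of each list described with the smallest p, every measured chloroplast division gene, up to 6 that differed from prolonged induction, and up to 2 unnamed probe sets in each direction. Of 30 lists described, 18 were written at the start and 12 after values were seen, and all members and lists were chosen with earlier results of these data known. An AP2 list and 2 list entries were dropped because their names matched other genes. A promoter motif search was not run. The same replicate numbers occur in all groups, but deviations of same-numbered arrays correlated at 0.011 between control and temporal, 0.012 between control and prolonged and −0.060 between prolonged and temporal, so the numbers were not taken to pair samples. Alternatives were other normalizations, an offset, other low filters, no intensity trend, only the groups compared, a replicate block, and each array left out. Plots used Python 3.11.15 and matplotlib 3.10.9.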

Additional observations from a re-analysis of the deposited data

Results flagged for a closer look

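The effect against control differed between the inductions in 5 named genes and 1 probe set with no symbol, by limma's test of the difference between temporal and prolonged arrays. GSTU25, which was lower than control under prolonged induction and did not pass after the single spray, had the largest difference, a temporal minus prolonged value of 3.37 on the log2 scale. AT1G35280, whose probe set may read several transcripts, fell after the single spray and did not fall under prolonged induction, with a difference of −2.90. The chitinase family gene AT2G43620 rose under both and differed by −2.16, AT4G12500 by −2.06, AT4G12490 by −1.90 and the probe set 249764_at by −1.51. With only 2 arrays per group no single array could be tested as an outlier.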

How the results depend on the processing

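The 386 calls against control became 249 with median centring and none without an intensity trend (1874 at an unadjusted p under 0.05 by limma), and ran from 56 to 366 with 1 array left out; under the other alternatives there were 282 to 544. At a signal of 100 or more the 274 calls became 159 with median centring, 459 when only probe sets with a mean of 100 or more were fitted, 0 without the trend, and 38 to 288 with 1 array left out. All 249 calls with median centring were among the 386. The 14 differences from prolonged induction became 24 with only those arrays, 0 without the trend (fitted by limma; 940 at an unadjusted p under 0.05 with it), and 1 to 18 with 1 array left out. With the replicate block the counts were 374, 264 and 17, and same-numbered arrays did not deviate together. Of the 74 genes and probe sets named as called, 14 were called with any 1 array left out and in each other setting that tested them, apart from that without the trend, 13 of them higher and AT1G35280 lower. Without temporal replicate 1, 18 were called, and without temporal replicate 2, 17. A lone remaining array was assumed to vary like the other groups. Reversals were among genes not called: with 1 array left out, the log2 fold change of FTSZ2-1 ran from −0.23 to 0.11, that of UGT78D1 from −1.12 to 0.022, and that of UGT78D2 from −0.44 to 0.28. The cause of these changes was not tested.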
